A study of Homo sapiens with 12 samples.

Results

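MDVR cells were compared with LNCaP-abl cells after both lines had received an siRNA against GATA2 (siGATA2), to describe which RNAs differed between the lines in knocked-down cells. The comparison used 6 of the 12 arrays of the study, 3 for each line, chosen by their labels. A probe was kept if it was detected above the negative controls (detection p under 0.05) on at least 3 of these 6 arrays, which held for 20055 of 47323 probes. The kept probes with 1 gene symbol gave 11361 genes, and 9495 of these were read by a probe detected on all 6 arrays.

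Both lines come from LNCaP, an established human prostate cancer line that responds to androgen. LNCaP-abl (Abl) was grown in 10% charcoal-stripped serum, which holds little androgen. MDVR came from LNCaP kept in 25 microM enzalutamide (MDV-3100), an androgen receptor antagonist, and was held in 10 microM during the experiments, in 10% fetal bovine serum. Cells received 25 nM of 1 Stealth siRNA against GATA2 or a control siRNA with no target (siNT). RNA was collected at 72 h and hybridised to Illumina BeadChips, 1 array per sample. The line, its serum and enzalutamide differed together and cannot be told apart in these samples. Whether the 3 samples in each group were grown as separate cultures is not stated in the labels, so the p-values may reflect technical spread alone.

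GATA2 is a zinc finger protein that, with FOXA1 and HOXB13, helps the androgen receptor reach its binding sites in luminal prostate cells. Entry into mitosis depends on a set of genes that are transcribed together late in the cell cycle by the MuvB complex with B-MYB and FOXM1. These include cyclin B, the mitotic kinases, and the proteins of kinetochores and spindles. LNCaP derivatives generally keep a luminal identity, with keratins of simple epithelia and secreted prostate proteins, while individual prostate genes can be lost or gained in each derivative.

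The targeted gene was read by 1 probe that was detected on all 12 arrays. Under siGATA2 the normalized log2 intensity of GATA2 was 8.43, 8.58 and 8.48 on the Abl arrays and 9.09, 8.80 and 8.86 on the MDVR arrays. All 3 MDVR arrays were above all 3 Abl arrays. The line difference was 0.42 on the log2 scale (SE 0.12, limma adjusted p = 0.00449). Under siNT the probe read 9.12, 8.80 and 8.82 in Abl and 8.88, 9.16 and 9.26 in MDVR, and these values overlapped. Against siNT, GATA2 fell by 0.41 in Abl (adjusted p = 0.01), whereas in MDVR the change was -0.18 (95% interval -0.425 to 0.062, adjusted p = 0.291), so knockdown at the RNA level was partial in Abl and not called in MDVR. The line difference in GATA2 itself was not shown to depend on the siRNA (0.23, 95% interval -0.11 to 0.58, adjusted p = 0.453).

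Arrays of 1 group were close to each other. Log2 values over the genes correlated at r = 0.9923 to 0.9934 within Abl, at 0.9913 to 0.9926 within MDVR, and at 0.9096 to 0.9165 between the lines under siGATA2. These correlations are across genes, which are not independent replicates. The arrays detected 40.4% to 43.3% of probes. The luminal markers KRT8, KRT18, EPCAM, CDH1 and HOXB13 were detected on all 6 arrays. Probes named for KRT5, KRT14, COL1A1, PECAM1 and PTPRC were not among those used here, so basal, stromal, endothelial and immune cells were not checked by those genes.

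The lines differed at 57.7% of the genes tested. Of 11361 genes, 3457 were higher in MDVR (30.4%) and 3096 were lower (27.3%) at a Benjamini-Hochberg adjusted p under 0.05, and the difference was at least 2-fold for 857 of the higher genes (7.54% of all) and 882 of the lower ones (7.76%). The median log2 difference over all genes was 0.03, and the median standard error was 0.13. With median scaling of the arrays in place of quantile normalization the median moved to 0.14, and the share of calls that were higher went from 52.8% to 64.2%, so small differences depend on the scaling. Under median scaling 4187 of the 11361 genes were higher and 2339 lower. Counts of list members with median scaling, given below, are to be read against these totals. With quantile normalization the 3 arrays of one line did not overlap those of the other for 62.5% of genes. Under siNT 3000 genes were higher (26.4%) and 2990 lower (26.3%). The siNT counts cover only genes that passed the filter on the siGATA2 arrays. Genes detected only under siNT, such as KLK2 and KLK3, are missing from them and from the counts of siRNA dependence. Of the genes higher under siGATA2, 69.8% were also called higher under siNT, and of those lower, 77.3% were also lower. The line difference itself depended on the siRNA for 808 genes (7.11%), with 456 differences more positive under siGATA2 (4.01%) and 352 more negative (3.1%). In 68 genes both line differences were called and had opposite signs.

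**Figure D1:**
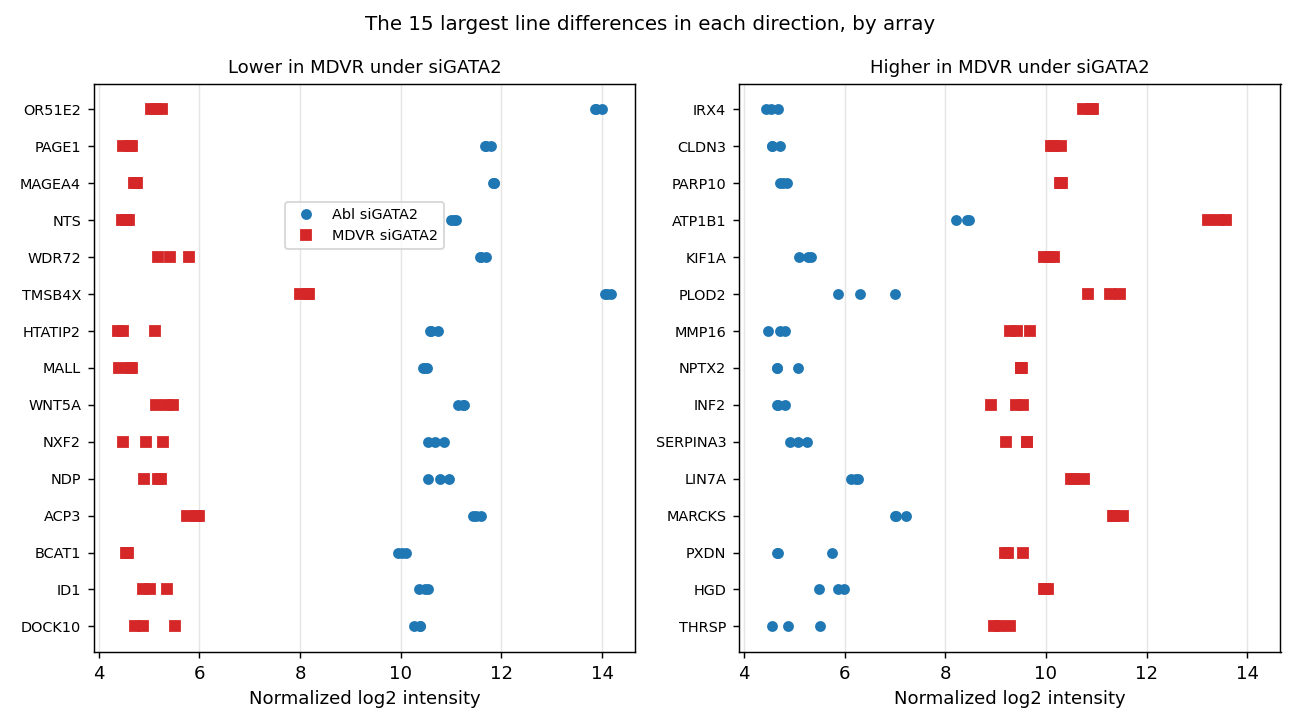
Normalized log2 intensity (horizontal axis) of the 15 genes with the largest lower and the 15 with the largest higher level in MDVR under siGATA2, 1 gene per line of the plot. Circles are the 3 Abl arrays and squares the 3 MDVR arrays, and in every gene shown the 2 sets do not overlap. OR51E2 read 13.86 to 14 in Abl and 5.03 to 5.25 in MDVR.

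The genes lower in MDVR by the largest amounts included prostate and germ cell genes that were bright in Abl and near the background in MDVR. OR51E2, an odorant receptor known for its expression in prostate epithelium, read 13.86, 13.88 and 14 in Abl and 5.14, 5.03 and 5.25 in MDVR. No array of one line came near those of the other, and the difference was -8.77 (SE 0.11, adjusted p = 1.33e-20). It was detected on 2 of the 3 MDVR arrays, and under siNT the difference was -8.73. PAGE1, a cancer-testis antigen of the X chromosome, read 11.69, 11.68 and 11.79 in Abl and was detected on no MDVR array, so it was at least 100.5-fold lower. MAGEA4, another cancer-testis antigen, read 11.83, 11.85 and 11.86 in Abl, was detected on no MDVR array, and was at least 109.6-fold lower. These lower bounds take as the level of an undetected probe, on each array, whichever is higher of the probe's own value and the weakest detected signal there, and they hold for the background correction used. NXF2, an mRNA export factor of germ cells, was lower by a log2 difference of -5.79 (SE 0.16). PAGE1, MAGEA4 and NXF2 have close copies that their probes may also read.

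Secreted and signalling genes made up a further set of lower genes. NTS, the neuropeptide neurotensin, read 11.05, 11.00 and 11.09 in Abl and was undetected in MDVR, at least 63.06-fold lower. WNT5A, a ligand of non-canonical Wnt signalling, read 11.23, 11.26 and 11.14 in Abl and 5.13, 5.36 and 5.47 in MDVR. The difference of WNT5A was -5.89 (SE 0.14), and its groups were far apart. NDP, which encodes norrin, a ligand of Frizzled-4, differed by -5.66 (SE 0.12). ACP3, prostatic acid phosphatase, read 11.49, 11.60 and 11.44 in Abl and 5.75, 5.99 and 5.94 in MDVR. Its difference was -5.62 (SE 0.09, adjusted p = 3.82e-19), and it stayed detected on all 3 MDVR arrays. BCAT1, a branched-chain amino acid aminotransferase, was at least 30.94-fold lower, and MALL, a membrane protein of the MAL family, at least 42.72-fold lower. TMSB4X, which binds actin monomers, kept a clear signal in MDVR (8.16, 8.18 and 8.00) but was far brighter in Abl (14.06, 14.17 and 14.10). The difference of TMSB4X was -5.99 (SE 0.07), and its probe may read processed copies of the gene. WDR72 (-6.16), HTATIP2 (-5.98) and DOCK10 (-5.31) completed the 15 with ID1, which is described below. HTATIP2, DOCK10, NXF2 and ID1 were each detected on 1 MDVR array only.

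The genes higher in MDVR by the largest amounts included epithelial, cytoskeletal and metabolic ones. IRX4, an Iroquois homeobox transcription factor, read 10.89, 10.94 and 10.74 in MDVR and was detected on no Abl array, so it was at least 54.20-fold higher. CLDN3, a tight junction protein, read 10.29, 10.15 and 10.11 in MDVR, was likewise undetected in Abl, and was at least 34.03-fold higher. PARP10, a mono-ADP-ribosyltransferase, was at least 36.96-fold higher and MMP16, a membrane-bound matrix metalloproteinase, at least 20.71-fold higher. ATP1B1, the beta subunit of the sodium pump, was detected in both lines, at 8.43, 8.48 and 8.21 in Abl and 13.44, 13.57 and 13.21 in MDVR. Its difference was 5.03 (SE 0.10, adjusted p = 1.21e-17), against 6.60 under siNT. PLOD2, which hydroxylates collagen lysines, varied more, with 5.86, 7.00 and 6.30 in Abl and 11.47, 11.27 and 10.84 in MDVR (difference 4.81, SE 0.22). Its groups were still apart by more than the range within either line.

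The other genes among the 15 with the largest higher levels had several roles. KIF1A, a kinesin that carries synaptic vesicle precursors (4.83), LIN7A, a scaffold of cell polarity (4.39), and MARCKS, an actin-binding substrate of protein kinase C (4.32), were detected on all 6 arrays. NPTX2, a neuronal pentraxin, was at least 21.32-fold higher, and INF2, a formin, at least 18.28-fold higher on its brightest probe, although its 3 kept probes differed between the lines by 0.75 to 4.58 on the log2 scale. PXDN, a matrix peroxidase (4.30), HGD, an enzyme of tyrosine breakdown (4.22), and THRSP, a protein of lipid synthesis (4.13), were also among the 15. PXDN, THRSP and SERPINA3 were each detected on 1 Abl siGATA2 array only, so the Abl level in their differences lies near the background. SERPINA3, a secreted inhibitor of serine proteases, read 5.26, 5.07 and 4.92 in Abl and 9.21, 9.63 and 9.63 in MDVR. Its difference of 4.41 (SE 0.15) compared with 2.37 under siNT, a gap of 2.04 that was called (adjusted p = 5.18e-06). No Abl siNT array detected SERPINA3, so neither of its differences nor their gap is an exact size.

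**Figure D2:**
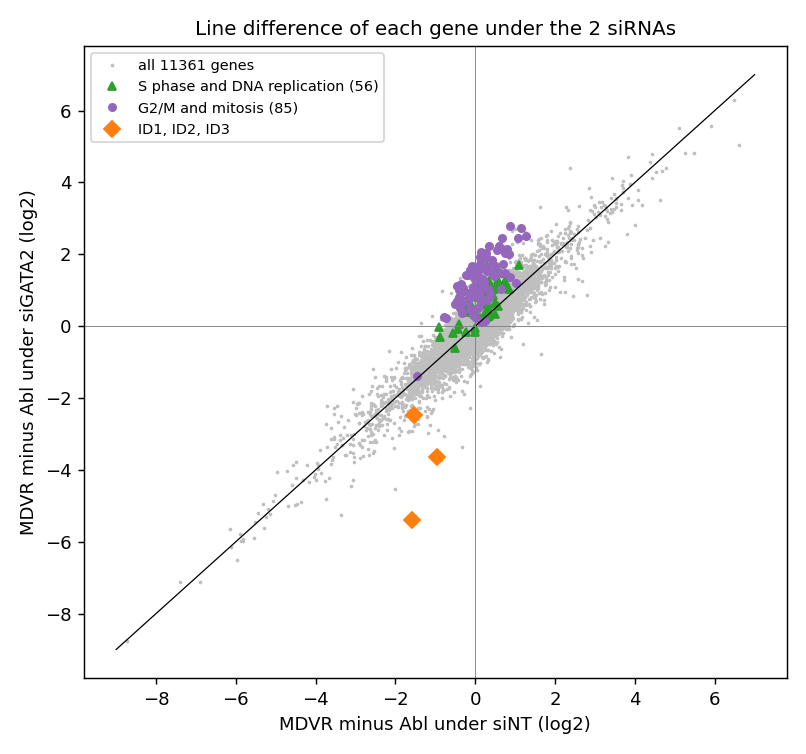
MDVR minus Abl on the log2 scale under siNT (horizontal axis) and under siGATA2 (vertical axis) for all 11361 genes, with the line of equal difference. The 85 G2/M genes lie mostly above the line and above 0 on the vertical axis, with a median of 1.30 under siGATA2 and 0.12 under siNT, while ID1, ID2 and ID3 lie below the line.

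Genes of mitosis were higher in MDVR than in Abl in nearly every case once GATA2 was targeted. Of 92 listed G2/M and mitosis genes 85 were tested, and 78 were higher in MDVR (91.8%, against 30.4% of all genes), 1 was lower and 6 were not called. The median difference was 1.30, against 0.03 over all genes. Of the 75 members detected on all 6 arrays, 71 were higher, against 31.2% of all genes so detected. With no background correction the median was 0.69, and on the authors' values it was 0.50. Under siNT 25 members were higher, 13 lower and 47 not called, and the median was 0.12. Among all genes 26.4% were higher and 26.3% lower under siNT. The line difference was more positive under siGATA2 than under siNT for 70 of the 85 members and more negative for none, against 4.01% and 3.1% of all genes. In bulk RNA fewer dividing cells and less mitotic RNA per cell cannot be told apart.

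The mean log2 intensity over the 85 members was 6.73, 6.84 and 6.69 on the Abl siGATA2 arrays and 8.03, 7.97 and 8.03 on the MDVR siGATA2 arrays. It was 8.22, 8.34 and 8.31 under siNT in Abl and 8.35, 8.48 and 8.44 under siNT in MDVR. The Abl siGATA2 arrays were therefore the low group, and the other 9 arrays lay between 7.97 and 8.48. The GATA2 probe itself fell by 0.41 in Abl and was not called in MDVR, and how far this bears on the line difference was not tested.

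**Figure D3:**
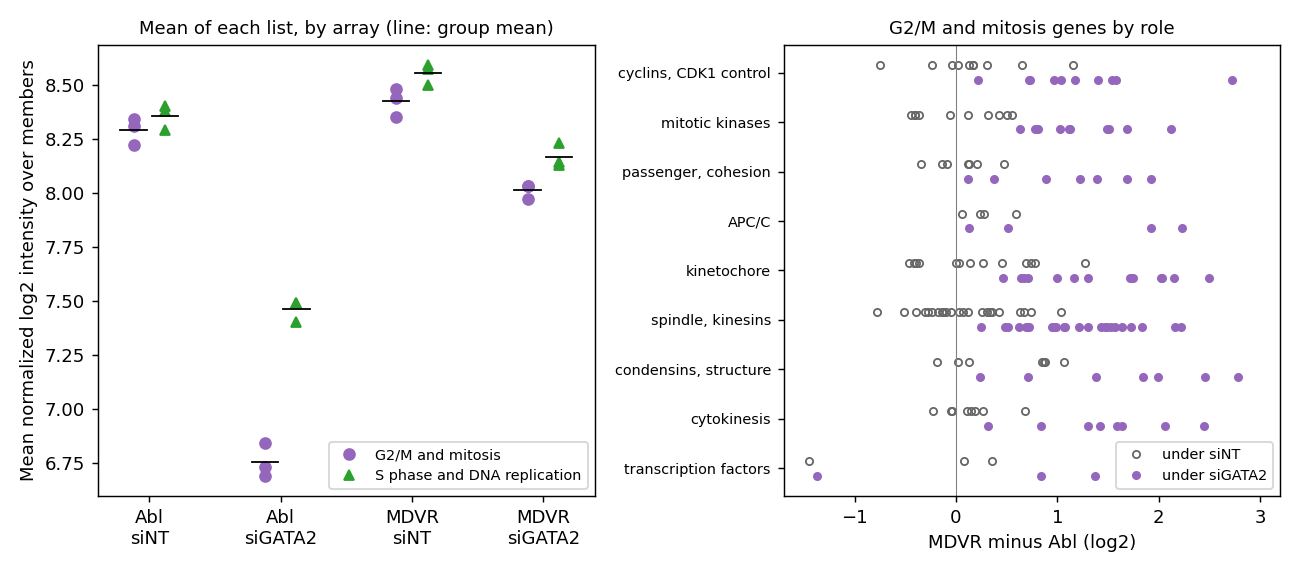
Left, the mean normalized log2 intensity over the 85 G2/M and mitosis genes (circles) and the 56 S phase genes (triangles) on each of the 12 arrays, with a bar for each group mean. Right, MDVR minus Abl on the log2 scale for each G2/M gene by role, under siNT (open circles) and siGATA2 (filled circles). Under siGATA2 the Abl arrays are lowest for both lists, and the only G2/M member called lower is LIN54 at -1.37.

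The promoters of the G2/M members that differed most and have an entry in the RefSeq promoter table are shown because these genes were all higher in MDVR. Each is the 250 bases before the annotated start (GRCh38.p14), 5′ to 3′ on the strand of the gene, at chr17:40417897-40418146 (minus) for TOP2A, chr5:69166900-69167149 (plus) for CCNB1, chr1:214602945-214603194 (plus) for CENPF and chr1:68497083-68497332 (minus) for DEPDC1. Capitals mark matches, on either strand, to TTTGAA (the core of the cell cycle homology region bound by MuvB) and to CCAAT (the box bound by NF-Y).
TOP2A: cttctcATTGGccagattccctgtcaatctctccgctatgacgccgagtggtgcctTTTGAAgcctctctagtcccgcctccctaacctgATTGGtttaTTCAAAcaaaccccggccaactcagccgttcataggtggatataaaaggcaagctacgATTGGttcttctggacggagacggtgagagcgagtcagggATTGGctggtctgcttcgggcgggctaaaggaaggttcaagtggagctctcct
CCNB1: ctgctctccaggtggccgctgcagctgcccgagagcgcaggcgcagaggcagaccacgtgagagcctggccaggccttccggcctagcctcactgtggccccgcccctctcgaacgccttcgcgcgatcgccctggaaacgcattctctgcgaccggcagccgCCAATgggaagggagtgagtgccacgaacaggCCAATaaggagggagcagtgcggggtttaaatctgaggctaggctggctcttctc
CENPF: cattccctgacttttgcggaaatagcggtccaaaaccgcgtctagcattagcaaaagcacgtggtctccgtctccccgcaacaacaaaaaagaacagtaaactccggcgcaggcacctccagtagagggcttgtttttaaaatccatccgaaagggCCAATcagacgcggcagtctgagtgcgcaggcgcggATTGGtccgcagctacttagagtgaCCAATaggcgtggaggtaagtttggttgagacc
DEPDC1: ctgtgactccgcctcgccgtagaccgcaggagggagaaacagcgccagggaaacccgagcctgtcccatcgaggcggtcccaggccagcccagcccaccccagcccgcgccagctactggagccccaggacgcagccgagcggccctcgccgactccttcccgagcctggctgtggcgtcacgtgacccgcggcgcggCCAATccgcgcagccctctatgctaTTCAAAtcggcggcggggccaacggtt

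In these windows TOP2A has 2 matches to TTTGAA and 4 to CCAAT, DEPDC1 has 1 of each, and CCNB1 and CENPF have 2 and 3 matches to CCAAT and none to TTTGAA. Of the 71 tested G2/M members with an entry, 35 (49.3%) had TTTGAA and 48 (67.6%) had CCAAT in this window. The shares among the 9151 tested genes with an entry were 8.43% and 35.9%, and among all 35116 promoters of this length in the table they were 13.3% and 32%. Among the 48 matched S phase members, 3 (6.25%) had TTTGAA and 27 (56.2%) had CCAAT. The G2/M list is made of genes known for this control, and a match is a description of the letters, not a bound site.

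The cyclins and their partners differed by up to 2.72. CCNB1, cyclin B1, which drives entry into mitosis, read 6.87, 7.15 and 6.81 in Abl and 9.79, 9.49 and 9.71 in MDVR. Every MDVR array was above every Abl array, the difference was 2.72 (SE 0.11, adjusted p = 2.16e-13), and under siNT it was 1.15. CCNB2 differed by 1.58, and its partner kinase CDK1, at 8.43, 9.06 and 8.57 in Abl and 10.38, 9.90 and 9.97 in MDVR, by 1.40. Under siNT the differences were -0.04 for CCNB2 and 0.02 for CDK1, and neither was called. Of 10 members with these roles 9 were higher (against 30.4% of all genes), and the inhibitory kinase PKMYT1 was not called (0.22).

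All 10 mitotic kinases were higher in MDVR under siGATA2, against 30.4% of all genes. Under siNT 4 were higher and 2 lower, against 26.4% and 26.3% of all genes. NEK2, a kinase of centrosome separation, had the largest difference on its brightest probe (2.12, SE 0.10), and its other probe differed by 0.54. AURKA, which builds spindle poles, read 7.45, 7.42 and 7.40 in Abl and 8.89, 8.97 and 8.93 in MDVR, a difference of 1.51 (SE 0.10, adjusted p = 1.82e-10). The gap between the AURKA groups was wider than the range within either, and under siNT the difference was -0.05. AURKB, the kinase of the chromosomal passenger complex, differed by 1.49 and PLK1, the polo-like kinase, by 1.12. PLK1 was dim, with detection on 1 of 3 Abl arrays. The spindle checkpoint kinases BUB1 (0.81) and TTK (1.68) were higher too.

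Regulators of anaphase followed. CDC20, the activator of the anaphase-promoting complex, read 9.19, 9.16 and 8.99 in Abl and 11.10, 11.07 and 10.95 in MDVR. The difference was 1.92 (SE 0.08, adjusted p = 1.1e-13) against 0.27 under siNT. UBE2C, the ubiquitin-conjugating enzyme of that complex, differed by 2.22, and PTTG1, or securin, by 1.92. The probe of PTTG1 may read its close copy PTTG3P, whose own probe differed by 1.91. BIRC5, or survivin, of the passenger complex, differed by 1.68. Separase, ESPL1, was not called (0.12, 95% interval -0.35 to 0.59), nor was the other activator FZR1 (0.13).

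All 13 kinetochore and centromere genes were higher, against 30.4% of all genes. CENPF, a kinetochore protein that accumulates before mitosis, read 6.15, 6.39 and 5.90 in Abl and 8.68, 8.50 and 8.76 in MDVR. Its groups did not overlap, and the difference was 2.50 (SE 0.12) against 1.27 under siNT. The checkpoint protein MAD2L1 differed by 2.15 and NUF2, of the microtubule-binding NDC80 complex, by 2.02. Its partner NDC80 differed by 1.16 under siGATA2 and by -0.36, in the opposite direction, under siNT. Of 23 spindle proteins and kinesins 22 were higher (against 30.4% of all genes), led by DLGAP5 (2.22) and the microtubule depolymerase KIF2C (2.16). KIF4A and KIF15 were detected on no Abl siGATA2 array, and were at least 2.72-fold and 2.43-fold higher. With the members that have only such bounds set at them, the median of the list was 1.28.

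Among proteins of chromosome structure, TOP2A, the topoisomerase of dividing cells, had the largest difference of the list. It read 6.83, 6.90 and 6.59 in Abl and 9.60, 9.55 and 9.50 in MDVR. The groups were far apart (2.78, SE 0.11, adjusted p = 7.31e-14), and under siNT the difference was 0.87. HMGB2, a chromatin protein, differed by 2.45, and the condensin subunits SMC2 and NCAPG by 1.99 and 1.84. The condensin subunit NCAPD2 was not called (0.23), but it was with median scaling (0.37) and without MDVR siGATA2 replicate 2 (0.32). Of 8 cytokinesis genes 7 were higher (against 30.4% of all genes). Among them were DEPDC1 (2.44), CEP55, which acts in the final cut between daughter cells (2.06), and the scaffold ANLN (1.42). CDCA2 (0.32) and the spindle gene GTSE1 (0.24) were the remaining members without a call.

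FOXM1, the transcription factor of late cell cycle genes, read 5.63, 5.90 and 5.56 in Abl and 7.28, 6.98 and 6.93 in MDVR. All MDVR arrays were above the Abl arrays, with a difference of 1.37 (SE 0.14, adjusted p = 1.68e-07) against 0.08 under siNT. The MuvB subunit LIN9 differed by 0.84, and without Abl siGATA2 replicate 2 its difference was 0.40 and no longer called (adjusted p = 0.0589). LIN54, the MuvB subunit that contacts DNA, went the other way, at 8.86, 8.58 and 8.74 in Abl and 7.39, 7.26 and 7.41 in MDVR. Its difference was -1.37 (SE 0.11, adjusted p = 5.55e-09), and under siNT it was -1.45.

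Genes of DNA replication were also higher in MDVR, by smaller amounts. Of 56 tested S phase genes 41 were higher (73.2%, against 30.4% of all genes), 1 was lower (1.79%, against 27.3%) and 14 were not called. The median of these S phase genes was 0.64. Under siNT 23 were higher and 8 lower (against 26.4% and 26.3% of all genes), with a median of 0.29. The difference between the siRNAs was called for 24 members, all in the positive direction, against 4.01% of all genes in that direction. PCNA, the sliding clamp of DNA polymerases, read 9.90, 10.02 and 9.97 in Abl and 11.09, 10.98 and 11.05 in MDVR. The groups did not overlap, and the difference was 1.08 (SE 0.07) against 0.06 under siNT, while its other probe differed by 0.16 under siGATA2. GINS2 of the replicative helicase differed by 1.58, the helicase subunit MCM7 by 1.28, and RAD51AP1, of recombination repair, by 1.66. The member lower in MDVR, named here because it was the only one, was DUT, which breaks down dUTP (-0.59). On values with no background correction the median of the list was 0.38, and on the authors' values it was 0.29.

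Of 19 tested genes of the G1 phase 9 were higher (47.4%) and 4 lower (21.1%), against 30.4% and 27.3% of all genes. Of the 16 detected on all 6 arrays 6 were higher and 4 lower, against 31.2% and 27.4% of all genes so detected. CDKN1A, the CDK inhibitor p21, was higher in MDVR by 1.14 under siGATA2 and by 1.57 under siNT. E2F2, a transcription factor of S phase genes, differed by 1.13 under siGATA2 and 0.28 under siNT. MYC, which drives growth and ribosome production, read 9.89, 9.98 and 9.92 in Abl and 11.23, 11.17 and 11.04 in MDVR. All MDVR arrays were higher, by 1.22 (SE 0.08, adjusted p = 3.55e-10), and by 0.57 under siNT. The gap between these line differences was 0.65 (95% interval 0.40 to 0.89, adjusted p = 0.00188). In the list of MYC and ribosome biogenesis genes 14 of 38 were higher (36.8%) and 6 lower (15.8%), with a median of 0.18, and with median scaling 20 were higher and 5 lower. With quantile normalization the share of higher MYC and ribosome biogenesis genes was near the 30.4% of all genes, and that of lower ones was below the 27.3%. The counts with median scaling are read against 4187 higher and 2339 lower of all 11361 genes. The nucleolar protein LYAR differed by 0.68 under siGATA2 and by -0.0041 under siNT.

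Most transcription factors of the prostate lineage were not called. Of 27 listed factors and cofactors 16 were tested, with 2 higher (12.5%, against 30.4% of all genes), 5 lower (31.2%, against 27.3%) and 9 not called, a median of -0.02, and calls that with median scaling became 6 higher and 1 lower. FOXA1 read 13.03, 12.89 and 12.85 in Abl and 13.08, 13.10 and 12.94 in MDVR. These values overlapped, and the difference was 0.12 (95% interval -0.03 to 0.27, adjusted p = 0.173), although with median scaling it was called at 0.24. HOXB13 read 10.12, 9.99 and 10.07 in Abl and 10.07, 9.84 and 9.89 in MDVR. The HOXB13 values overlapped too, and the difference was -0.12 (95% interval -0.33 to 0.08, adjusted p = 0.285). The chromatin and epithelial factors TRPS1 (-0.25), GRHL2 (0.22), SPDEF (-0.12), ELF3 (0.18) and FOXP1 (0.31) were not called. With median scaling GRHL2 (0.38), ELF3 (0.34) and FOXP1 (0.44) were, and FOXP1 and GRHL2 were also called without MDVR siGATA2 replicate 2 (0.40) and without Abl siGATA2 replicate 3 (0.27), respectively.

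SOX9, a factor of prostate progenitor cells, was the lineage gene with the largest difference. It read 5.18, 5.14 and 5.27 in Abl and 6.63, 6.41 and 6.73 in MDVR, with no overlap (1.39, SE 0.16, adjusted p = 3.91e-07). Lower in MDVR were the SUMO ligase PIAS1 (-0.99), the corepressor TLE3 (-0.43), the coactivator NCOA1 (-0.33), the homeobox factor MEIS1 (-0.37) and the ETS factor EHF. EHF, which is restricted to epithelia, read 9.02, 9.28 and 9.04 in Abl and 8.78, 8.70 and 8.40 in MDVR. None of these was called with median scaling except PIAS1. MEIS1 also lost its call without any one of 4 arrays, Abl siGATA2 replicates 2 and 3 and MDVR siGATA2 replicates 1 and 3, at adjusted p = 0.0696, 0.143, 0.114 and 0.121. TLE3 lost its call without Abl siGATA2 replicate 2 or 3 or MDVR siGATA2 replicate 1, at adjusted p = 0.0591, 0.0538 and 0.0727. The line difference of EHF was -0.49 under siGATA2 (adjusted p = 0.00784) and 0.36 under siNT (adjusted p = 0.043), and the gap of -0.85 was called (adjusted p = 0.0169).

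Luminal genes were found among both the higher and the lower genes. Of 37 listed genes 22 were tested, with 8 higher (36.4%, against 30.4% of all genes), 10 lower (45.5%, against 27.3%) and 4 not called (median -0.22), and with median scaling 8 were higher and 8 lower. Of the 16 detected on all 6 arrays 4 were higher and 8 lower. KRT8, a keratin of luminal cells, read 11.10, 11.15 and 11.00 in Abl and 9.52, 9.35 and 9.51 in MDVR. The difference was -1.63 (SE 0.10, adjusted p = 1.16e-10), while its partner KRT18 was not called (-0.29, adjusted p = 0.143). EPCAM (-0.05, 95% interval -0.24 to 0.14) and CDH1, or E-cadherin (0.02, 95% interval -0.11 to 0.15), were not called. CDH1 was higher in MDVR under siNT (0.51), and the gap between the siRNAs was called (-0.49, adjusted p = 0.00182).

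Beside ACP3, the luminal genes lower in MDVR included surface and transport proteins of prostate cancer. SLC45A3, or prostein, read 7.53, 7.43 and 7.67 in Abl and 4.86, 5.42 and 5.07 in MDVR, where 1 array detected it (-2.43, SE 0.17). AMACR, a peroxisomal racemase used as a prostate cancer marker, read 10.49, 10.83 and 10.50 in Abl and 8.25, 8.13 and 8.41 in MDVR. The difference of AMACR was -2.34 (SE 0.12), and that of the metalloreductases STEAP1 and STEAP2 was -1.43 and -1.53. FOLH1, which encodes prostate-specific membrane antigen, differed by -0.82, and MSMB, a secreted protein of the prostate, was at least 4.20-fold lower. TMPRSS2, a protease induced by androgen, read 10.00, 9.91 and 10.05 in Abl and 9.78, 9.80 and 9.55 in MDVR (-0.28, adjusted p = 0.0311). The call of TMPRSS2 was lost with median scaling and without Abl siGATA2 replicate 2 or 4 or MDVR siGATA2 replicate 3, at adjusted p = 0.29, 0.0723, 0.0974 and 0.145.

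The luminal genes higher in MDVR, beside CLDN3, included proteases. The summed linear level of the luminal list was 39960 to 43820 on the Abl arrays and 25970 to 26450 on the MDVR arrays. A sum of linear levels gives most weight to the brightest members of a list. KLK4, a kallikrein, read 8.01, 7.91 and 7.76 in Abl and 10.11, 9.87 and 9.66 in MDVR. The KLK4 difference was 1.99 (SE 0.11, adjusted p = 1.85e-11), smaller than the 2.67 under siNT by a called margin (adjusted p = 0.0104). KLK2 and KLK3, which encodes prostate-specific antigen, were detected on none of the 6 siGATA2 arrays and so were not tested, although the MDVR siNT arrays detected both. HPN, a membrane serine protease, differed by 1.55, ALDH1A3, an enzyme of retinoic acid synthesis, by 2.26, and the desmosome protein DSP by 0.95. PMEPA1, which dampens TGF-beta signalling, was at least 5.39-fold higher on its brightest probe, and the log2 differences of its 2 probes were 1.20 and 2.91.

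Targets of the androgen receptor were counted next. Of 33 tested genes listed as induced by it, 13 were higher and 13 lower in MDVR (39.4% each, against 30.4% and 27.3% of all genes), with a median of 0.02. Of the 25 detected on all 6 arrays 9 were higher and 10 lower. ADAMTS1, a secreted metalloprotease, read 9.81, 9.89 and 9.72 in Abl and 5.42, 5.35 and 5.27 in MDVR, a difference of -4.46 (SE 0.11), and its groups were far apart. FKBP5, an immunophilin induced by androgen, was higher in MDVR under both siRNAs (0.30 and 0.30, adjusted p = 0.0312 and 0.0341). The first of these calls on FKBP5 was lost without Abl siGATA2 replicate 3 or 4 or MDVR siGATA2 replicate 1 or 2, at adjusted p = 0.0604, 0.142, 0.12 and 0.089. Of 17 genes listed as repressed by the receptor, 10 were lower (58.8%, against 27.3% of all genes) and 6 higher (35.3%, against 30.4%), with a median of -1.74. Of the 12 detected on all 6 arrays 8 were lower and 3 higher. Besides NTS, the lower ones included DDC, aromatic amino acid decarboxylase (-2.61), the opioid receptor OPRK1 (-3.31) and the glucuronidating enzymes UGT2B17 (-2.44) and UGT2B15 (-2.44), whose probes may read other UGT2B copies. UGT2B17, which inactivates androgens, read 13.87, 13.84 and 14.06 in Abl and 11.36, 11.54 and 11.54 in MDVR. The androgen-producing reductase AKR1C3 was higher in MDVR by 1.33 under siGATA2 and by 2.58 under siNT, a called gap (adjusted p = 0.000558).

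Of 39 listed HOX genes 11 were tested, 6 of cluster C and 5 of cluster B. Of the 7 detected on all 6 arrays 2 were lower in MDVR, HOXC6 and HOXC13, and 1 was higher, HOXB5 (1.12), against 27.4% lower and 31.2% higher among all genes so detected. HOXC6 read 12.15, 12.01 and 12.09 in Abl and 11.39, 11.28 and 11.28 in MDVR (-0.77, SE 0.08). HOXC13 differed by -1.11. HOXC12, HOXC8 and HOXC11 were detected on all 3 Abl arrays and no MDVR array, so they passed the filter only through the line where they were high. They were at least 2.10-fold, 1.61-fold and 1.43-fold lower in MDVR. Their line differences under siNT were -0.56 for HOXC13, -0.27 for HOXC12, -0.08 for HOXC8 and -0.05 for HOXC11, and neither HOXC12 nor HOXC8 was detected on any siNT array. The gap between the siRNAs was called for HOXC12 (adjusted p = 0.00714) and HOXC8 (adjusted p = 0.0169), and not for HOXC13 or HOXC11 (adjusted p = 0.0543 and 0.139).

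Markers of other cell types gave mixed values. Of 24 listed mesenchymal genes 5 were tested. The collagens COL6A1 (3.50) and COL5A1 (3.34) and vimentin, VIM (0.42 on its brightest probe and 2.01 on the other), were higher in MDVR, and the smooth muscle genes ACTA2 (-2.28) and TAGLN (-1.36) were lower. VIM was no longer called without MDVR siGATA2 replicate 1 (0.27, adjusted p = 0.112). The summed linear level of the mesenchymal list was 922.3 to 989.1 on the Abl arrays and 1584 to 1787 on the MDVR arrays. This sum and those that follow are weighted toward the brightest members, so they do not describe a list as a whole. Of 28 listed neuroendocrine and neuronal genes 10 were tested, with 5 lower (50%, against 27.3% of all genes) and 2 higher (20%, against 30.4%). The lower ones included NTS, undetected in MDVR, and the higher ones were the tubulin TUBB3 (2.22) and the microtubule destabiliser STMN1 (1.65). Of the 8 detected on all 6 arrays 3 were lower and 2 higher, against 27.4% and 31.2% of all genes so detected. The summed level of the neuroendocrine and neuronal list was 13550 to 13690 in Abl and 3994 to 4230 in MDVR. Of the markers that define neuroendocrine cells, CHGA was detected on 1 Abl and no MDVR array, and INSM1 on all 6. Of 15 basal genes 3 were tested, and ITGA6, an integrin subunit (-0.99), was the one detected on all 6 arrays. ITGB4, another integrin subunit, and the transcription factor SNAI2 were detected on all 3 Abl arrays and on 0 and 1 MDVR arrays, so they passed the filter largely through Abl. ITGB4 was at least 1.39-fold lower and SNAI2 differed by -0.56, a call lost without Abl siGATA2 replicate 2 or 3 or MDVR siGATA2 replicate 2 or 3 (adjusted p = 0.0568, 0.0728, 0.0668 and 0.106). The summed level of the basal genes was 528.3 to 551.8 in Abl and 283.5 to 316.8 in MDVR. Of 3 tested among 18 endothelial and immune genes only VWF was called (-2.28), and the sum was 1001 to 1278 in Abl and 667.2 to 758 in MDVR. The part of these genes in the other line differences was not tested.

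**Figure D4:**
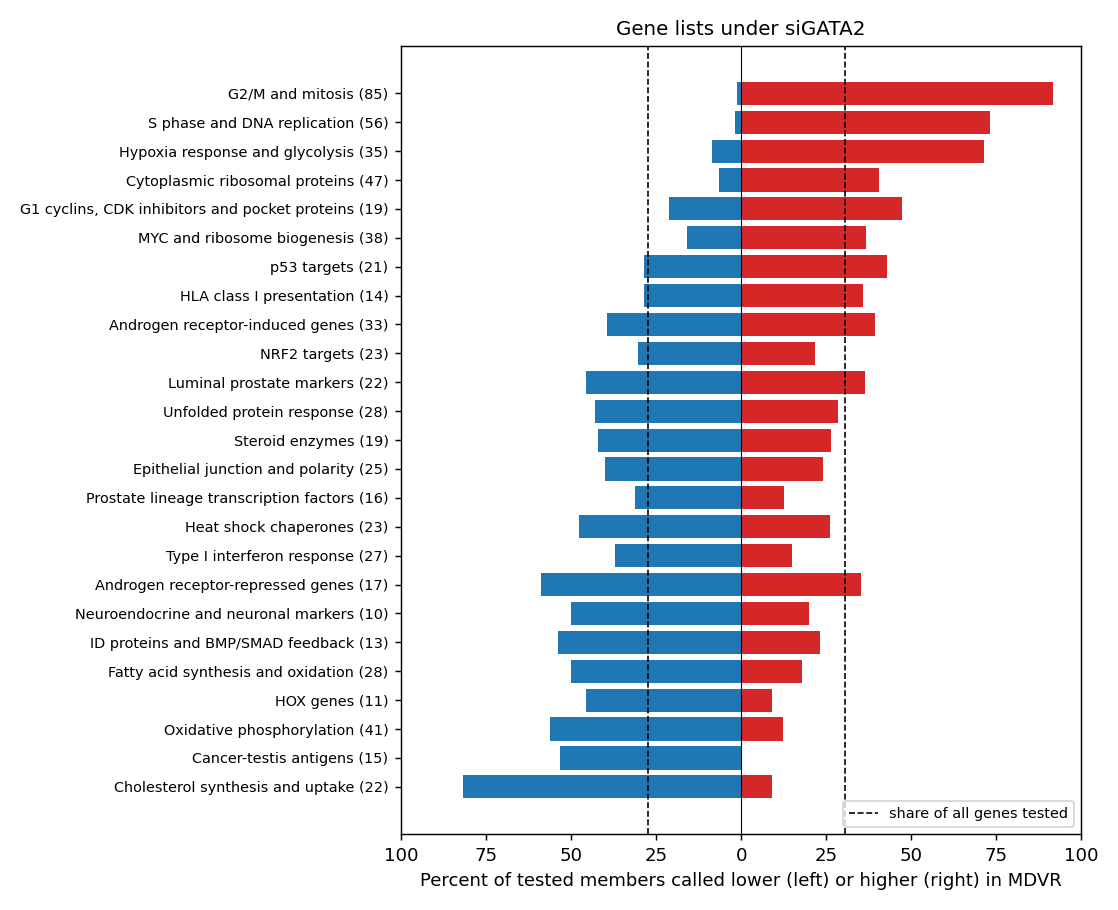
Percent of tested members called higher (right, red) or lower (left, blue) in MDVR under siGATA2, for each gene list with at least 10 tested members (number in brackets). The dashed lines mark the shares among all genes, 30.4% higher and 27.3% lower. G2/M and mitosis has 91.8% higher, and cholesterol synthesis and uptake has 81.8% lower.

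Of the metabolic lists, cholesterol and hypoxia genes differed between the lines under both siRNAs. The gap between siRNAs was called negative for 3 of 22 cholesterol genes and positive for none, against 3.1% and 4.01% of all genes. For the 35 hypoxia and glycolysis genes no gap was called in either direction, against 7.11% of all genes. Genes of cholesterol synthesis and uptake were lower in MDVR in 18 of 22 cases (81.8%, against 27.3% of all genes) and higher in 2, with a median of -0.82 under siGATA2 and -0.81 under siNT. INSIG1, a sterol-regulated brake on this pathway, read 12.76, 12.54 and 12.69 in Abl and 10.14, 10.12 and 9.99 in MDVR, a difference of -2.58 (SE 0.08). The cyclase LSS (-1.88), the epoxidase SQLE (-1.42) and the synthase HMGCS1 (-1.37) followed. Hypoxia response and glycolysis genes were higher in 25 of 35 cases (71.4%, against 30.4% of all genes) and lower in 3, with a median of 0.71 under siGATA2 and 0.75 under siNT. VEGFA, the angiogenic growth factor, read 8.03, 8.29 and 8.00 in Abl and 11.03, 10.90 and 10.59 in MDVR (2.74, SE 0.11). The glycolytic regulators PFKFB4 (2.09) and PFKP (1.63) and the mitophagy receptor BNIP3 (1.28) were higher, whereas CA12, a carbonic anhydrase of the hypoxia response, was lower (-2.19).

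Among the other lists, the counts of some depended on the scaling. Genes of oxidative phosphorylation were lower in 23 of 41 cases (56.1%, against 27.3% of all genes) and higher in 5 (median -0.18). With median scaling 11 were lower and 9 higher, where 2339 of all 11361 genes were lower and 4187 higher. Of 47 cytoplasmic ribosomal protein genes 19 were higher (40.4%, against 30.4% of all genes) and 3 lower (6.38%, against 27.3%), and with median scaling 28 were higher and 2 lower. All 6 metallothioneins, which bind zinc and copper, were higher under siGATA2 (against 30.4% of all genes), from 0.35 to 1.26, under each scaling tried. MT1X read 10.29, 10.41 and 10.37 in Abl and 11.89, 11.51 and 11.45 in MDVR. Under siNT 2 of the 6 were called higher (against 26.4% of all genes), and the gap between siRNAs was called positive for 3 (against 4.01%). Metallothionein probes may read close copies. Of 15 cancer-testis genes 0 were higher and 8 were lower (53.3%, against 27.3% of all genes), though 2 were called higher with median scaling.

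The stress, immune and lipid lists are read against 27.3% lower and 30.4% higher among all genes, and several lie near these shares. Their counts with median scaling are read against 2339 lower and 4187 higher of 11361 genes. Of 27 type I interferon response genes 10 were lower (37%) and 4 higher (14.8%). PARP14, an ADP-ribosyltransferase, was lower by at least 6.55-fold, and the antiviral proteins IFIT1 and IFIT2 differed by -1.77 and -1.71, while LGALS3BP, a secreted glycoprotein, was higher by at least 4.61-fold. Genes of fatty acid synthesis were lower in 10 of 15 cases, with the acyl-CoA ligase ACSL4 at -3.63, whereas in oxidation 4 of 13 were higher and 4 lower, with the peroxisomal oxidase ACOX2 at 3.58. Of 28 genes of the unfolded protein response 12 were lower (42.9%) and 8 higher (28.6%). The stress-induced factors DDIT3 (1.46) and TRIB3 (1.28) were higher and the endoplasmic reticulum chaperone partners SDF2L1 (-1.64) and DNAJC3 (-1.93) lower. Of 23 heat shock chaperones 11 were lower (47.8%) and 6 higher (26.1%), with the small chaperone HSPB8 at -3.78. Of 23 NRF2 targets 7 were lower (30.4%) and 5 higher (21.7%), and GCLC and SLC7A11, which supply glutathione, differed by -1.69 and -1.44. In the S100 family S100P was higher (3.60) and S100A10 lower (-3.31). Of 25 genes of epithelial junctions and polarity 10 were lower (40%) and 6 higher (24%), and with median scaling 9 each. Of 14 genes of HLA class I presentation 5 were higher (35.7%) and 4 lower (28.6%), and of 19 steroid enzymes 5 were higher (26.3%) and 8 lower (42.1%), which with median scaling became 6 and 2 for the former and 6 and 6 for the latter.

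Among the line differences that depended on the siRNA were those of ID1 and ID3, which are inhibitors of basic helix-loop-helix factors and targets of BMP signalling. ID1 read 10.37, 10.48 and 10.55 on the Abl siGATA2 arrays, and 5.01, 4.88 and 5.35 on the MDVR siGATA2 arrays. Under siNT it read 5.87, 6.63 and 5.88 in Abl and 4.50, 4.41 and 4.72 in MDVR. ID1 was thus bright in 1 group of arrays, and its line difference was -5.38 (SE 0.19) under siGATA2 and -1.59 under siNT, a gap of -3.80 (95% interval -4.36 to -3.23, adjusted p = 1.71e-07). In MDVR 1 siGATA2 array and 0 siNT arrays detected this probe, so its MDVR level was at or near the background and these sizes are not exact. The other ID1 probe had a line difference of -1.56 under siGATA2. ID3 read 9.89, 10.01 and 10.15 in Abl and 6.30, 6.54 and 6.28 in MDVR, with a line difference of -3.64 against -0.95 under siNT. ID2 differed by -2.46 and -1.52. BMP2, a ligand of the pathway, was undetected in MDVR and at least 7.44-fold lower, while BMP7 was undetected in Abl and at least 2.06-fold higher. Of 13 tested genes in this list the gap was called negative for 5, against 3.1% of all genes.

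Further genes had a line difference that was more negative under siGATA2. VWF, the carrier of clotting factor VIII, read 8.94, 8.85 and 8.73 in Abl and 6.71, 6.63 and 6.33 in MDVR, whereas under siNT it read 5.14, 4.79 and 5.08 and 5.25, 4.63 and 4.74. All siGATA2 arrays thus read above all siNT arrays, those of Abl highest, and under siNT, where 1 array of each line detected VWF, no line difference was called (-0.13, adjusted p = 0.557). AOC1, a diamine oxidase, was at least 10.40-fold lower in MDVR under siGATA2, and the stromelysin MMP10 (-4.53 against -2.02 under siNT) and the matricellular protein CCN3 (-3.06 against -0.77) also had called gaps. MMP10 was detected on 1 MDVR siGATA2 array, CCN3 on no MDVR siNT array and AOC1 on no MDVR array, so their gaps are not exact sizes. SDCBP2 read 8.70, 8.96 and 8.90 in Abl and 5.91, 4.89 and 5.67 in MDVR. Its line difference was -3.37 under siGATA2, and under siNT it was not called (-0.32, adjusted p = 0.187). The smallest difference among its 3 probes under siGATA2 was -1.88. HEPACAM, a cell adhesion gene, changed direction, with at least 1.36-fold lower levels in MDVR under siGATA2 and a difference of 1.64 under siNT. ESCO2, a cohesin acetyltransferase of S phase, went the opposite way, with a line difference that was more positive under siGATA2. ESCO2 differed by -0.83 under siNT and was at least 1.61-fold higher in MDVR under siGATA2.

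Probes of 1 gene did not always give the same size. Of the named genes 46 had more than 1 kept probe, and in 18 of these the line differences of the probes under siGATA2 were over 1.5-fold apart. In FOXP1 the 4 probes ran from -0.57 to 0.31 and in NCOA1 the 3 probes from -0.55 to 0.08, so the direction of both genes depended on the probe. The probes of FOLH1 differed by -0.82 and -0.03, those of DSP by 0.95 and 0.28, those of STMN1 by 1.65 and 0.94 and those of SMC2 by 1.99 and 0.85. The 3 probes of HOXC6 ran from -0.995 to -0.335. Among the larger differences the second probe gave -5.34 for MAGEA4, 3.51 for PLOD2, 2.43 for HGD and -4.16 for S100A10, which kept the direction of the brightest probe.

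**Figure D5:**
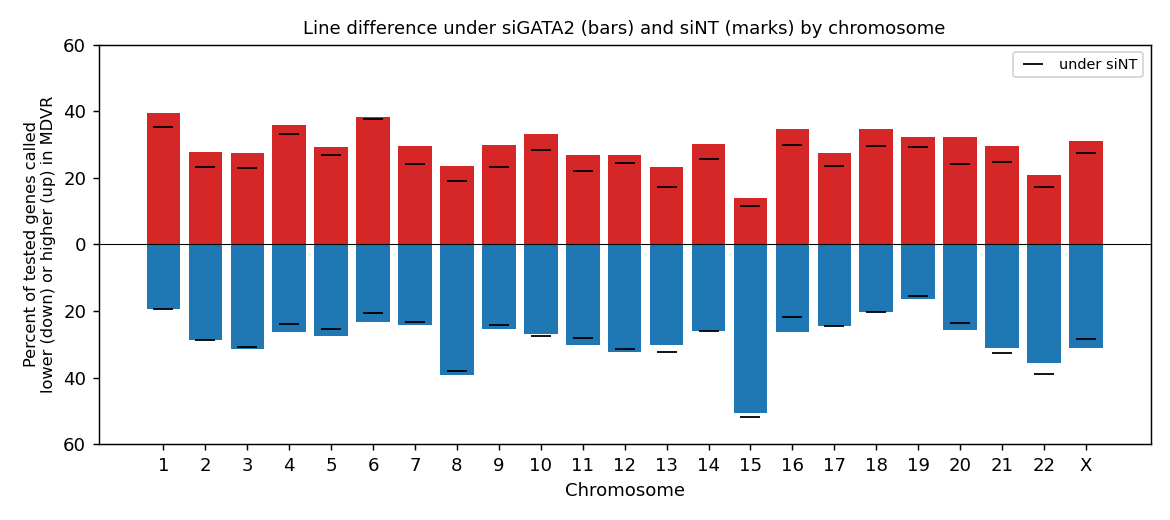
Percent of tested genes called higher (up, red) or lower (down, blue) in MDVR under siGATA2 for each chromosome, with the same shares under siNT as black marks. Chromosome 15 has the most lower genes, 50.7%, and the fewest higher, 14%.

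The line differences were unevenly spread over the chromosomes. Of 351 tested genes on chromosome 15, 178 were lower in MDVR (50.7%) and 49 higher (14%), with a median of -0.33, against 27.3% and 30.4% of all genes. Under siNT 51.9% were lower (against 26.3% of all genes) and the median was -0.36. Chromosome 8 (39.3% lower) and chromosome 22 (35.6% lower) followed, while chromosomes 1 and 6 had the most higher genes (39.6% and 38.2%). When the genes of each chromosome were cut into 443 blocks of 25 neighbours, a block held a median of 7 lower genes and at most 18. Each of the 14 blocks on chromosome 15 had a median below 0. Copy number was not measured in these samples, and its part in this pattern was not tested.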

How the data were processed

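Total RNA of 12 samples was measured on Illumina BeadChips, with 3 samples for each line and siRNA. The deposited table holds, for each probe and array, the mean bead intensity on a linear scale, not normalized per the file headers, and a detection p-value against negative controls. The authors also deposited log2 values for 23043 probes, used here as an alternative, and per the submitters' processing notes lumi was used, with no version given in the sources used here.

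Intensities were background-corrected and quantile normalized over the 12 arrays with neqc (limma 3.58.1 in R 4.3.3, offset 16), with the negative-control mean and variance estimated from detection p-values. Named probes detected (p-value under 0.05) on 3 or more siGATA2 arrays that carry 1 gene symbol in the platform annotation were tested, and the brightest probe stood for a gene. Of the 20055 kept probes 5068 had no single symbol and were left unnamed. All 12 arrays entered 1 limma model with a mean for each group and a trended eBayes prior, and p-values were adjusted by Benjamini-Hochberg over 11361 genes. Precision is limited by the number of arrays, and intensities give no read depth.

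The genes named were GATA2, FOXM1, MYC, FOXA1, HOXB13, TMPRSS2, KLK3 and FKBP5, the 15 largest called differences each way, and the 8 largest called differences between siRNAs each way. Any member of the G2/M, lineage factor and luminal lists could be named, and up to 6 members of any other list. Apart from DUT and the markers that define cell types, these up to 6 were taken from the smallest p-values under siGATA2. They are therefore not typical of their lists. The members and lists were chosen with earlier results of these data known. Alternatives varied the background correction, normalization, filter, probe choice, variance estimate, replicate block, minimum fold and the arrays included.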

Additional observations from a re-analysis of the deposited data

Results flagged for a closer look

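Of the 167 genes tested and named, 71 had a line difference that depended on the siRNA, by the test of the difference between the MDVR minus Abl contrasts in the limma model (adjusted p between 7.59e-08 and 0.0475). The values that follow are the log2 line difference under siGATA2 minus that under siNT, 46 of them positive and 25 negative. Over all genes the share was 7.11% (808 of 11361). The named genes include the largest such differences and the G2/M list by choice, so this count is no result about them. Cyclins, kinases and their regulators were PTTG1 (1.80), PTTG3P (1.85), BIRC5 (1.77), CDC20 (1.65), UBE2C (1.64), CCNB2 (1.62), PLK1 (1.57), CCNB1 (1.57), NEK2 (1.56), AURKA (1.56), CDK1 (1.38), FOXM1 (1.28), BUB1 (1.21), TTK (1.18) and AURKB (1.07). Structural proteins of mitosis were TOP2A (1.91), CEP55 (1.90), DLGAP5 (1.89), DEPDC1 (1.77), NUF2 (1.75), NCAPG (1.71), KIF4A (1.69), ANLN (1.64), NDC80 (1.52), KIF2C (1.48), HMGB2 (1.38), MAD2L1 (1.37), CENPF (1.23), SMC2 (1.15), GTSE1 (1.03) and KIF15 (0.84). GTSE1 was called for this difference although its line difference under siGATA2 was not.

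Genes of replication and growth with positive values were ESCO2 (1.81), RAD51AP1 (1.36), GINS2 (1.09), PCNA (1.01), E2F2 (0.85), MCM7 (0.71), LYAR (0.68) and MYC (0.65). The remaining positive values were those of SERPINA3 (2.04), STMN1 (1.06), NPTX2 (0.88), IFIT2 (0.74), HSPB8 (0.71), DDC (0.57) and MT1X (0.49).

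The negative values were led by ID1 (-3.80), SDCBP2 (-3.04), AOC1 (-2.87), ID3 (-2.70), MMP10 (-2.51), HEPACAM (-2.42), CCN3 (-2.29) and VWF (-2.15). ATP1B1 (-1.57), BMP2 (-1.36), ADAMTS1 (-1.35), AKR1C3 (-1.25), HOXC12 (-1.25), HOXC8 (-1.04), ID2 (-0.94) and ACTA2 (-0.91) followed. Smaller ones were SLC45A3 (-0.89), EHF (-0.85), AMACR (-0.70), KLK4 (-0.69), DDIT3 (-0.53), NTS (-0.52), CDH1 (-0.49), CDKN1A (-0.42) and INSIG1 (-0.39).

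In 13 of these genes the probe was detected on no array of at least 1 of the 4 groups, so the value given is not an exact size. They are AOC1, BMP2, CCN3, ESCO2, HEPACAM, HOXC12, HOXC8, ID1, KIF15, KIF4A, NPTX2, NTS and SERPINA3. In MMP10, PLK1, SLC45A3 and VWF the lowest group had 1 array with detection.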

How the results depend on the processing

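For 167 named genes under 28 alternatives, 60 of 4627 values of the line difference under siGATA2 lost their call and 12 gained one, in 24 genes. No called line difference turned its direction. The sign turned for 5 genes without a call, CDH1 (-0.03 to 0.13), EPCAM (-0.15 to 0.06), ESPL1 (-0.07 to 0.26), HOXB13 (-0.20 to 0.0044) and SPDEF (-0.28 to 0.04). Tested against a minimum fold of 1.5, 967 genes were higher and 945 lower under siGATA2, 773 and 838 under siNT, and 43 and 22 for the difference between siRNAs, where the G2/M list kept 29 calls. With a replicate block the 12 arrays gave 3124 higher and 2764 lower genes and the 6 siGATA2 arrays alone 3001 and 2738. The difference between siRNAs then gave 159 and 106, and 53 in the G2/M list. Same-numbered arrays from different groups formed 14 pairs, siNT arrays and pairs within a line included. Their deviations from the group means correlated across genes at r = -0.2151 to 0.1254, with 1 pair above 0.1. The 40 differently numbered pairs gave r = -0.2171 to 0.2272, with 11 above 0.1. Deviations from the mean of a small group depend on each other, and not all groups carry the same numbers. These correlations therefore cannot decide whether same-numbered samples shared a culture or a batch. Leaving out each array gave 3174 to 3509 higher and 2839 to 3150 lower genes under siGATA2, 2695 to 3017 and 2733 to 3009 under siNT, and 290 to 426 and 220 to 321 for the difference. In the G2/M list 76 to 78 were higher and 62 to 67 had a positive difference. The lowest counts for the difference came without Abl siGATA2 replicate 4 (290 and 220), and without Abl siNT replicate 2 there were 302 positive ones. The cause was not tested. Signal near background limits the levels of undetected probes, whose folds are lower bounds.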
